A study of Homo sapiens with 3 samples.

Results

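A set of 10 core genes of the TGF-beta pathway was followed through 3 RNA-seq libraries of MDA-MB-231, a cell line from a human breast carcinoma that lacks the usual hormone and HER2 receptors. The set was taken by name: the ligand genes TGFB1 and TGFB2, the latency gene LTBP1, the receptor genes TGFBR1 and TGFBR2, the signal transducers SMAD2, SMAD3 and SMAD4, the corepressor SKIL and the secreted protein gene TGFBI. All 10 were found among the 48162 genes listed, and all 10 were among the 12649 genes analysed (a GENCODE 29 name and a mean of at least 1 FPKM). In the files they are ENSG00000105329 (TGFB1), ENSG00000092969 (TGFB2), ENSG00000049323 (LTBP1), ENSG00000106799 (TGFBR1), ENSG00000163513 (TGFBR2), ENSG00000175387 (SMAD2), ENSG00000166949 (SMAD3), ENSG00000141646 (SMAD4), ENSG00000136603 (SKIL) and ENSG00000120708 (TGFBI). FPKM counts the fragments of a gene, divided by its transcript length and by the size of the library. The first library came from control cells, the second from cells depleted of FoxO3, and the last from cells depleted of both Geminin and FoxO3 (the co-depletion). All 3 cultures grew in medium with 10% fetal bovine serum and were infected with lentivirus for 24 h. They were harvested 72 h after the medium was changed. How the genes were depleted, and what virus the control received, is not stated in the labels. With 1 library per group no difference below has a replicate check, and every ratio compares libraries, not conditions. In bulk RNA, fewer cells that express a gene and less RNA of it per cell cannot be told apart. Triplets of values are in the order control, FoxO3 depletion, co-depletion.

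TGF-beta is secreted as a latent dimer that stays bound to its own propeptide, and latent TGF-beta binding proteins such as LTBP1 tether that complex to the matrix until integrins, thrombospondin or proteases release it. The free ligand binds the type II receptor TGFBR2, which phosphorylates the type I receptor TGFBR1. TGFBR1 then phosphorylates SMAD2 and SMAD3, and these enter the nucleus with SMAD4 to regulate transcription, where SKIL restrains them. FoxO factors are known partners of SMAD complexes at some promoters, and MDA-MB-231 is a common model for pro-metastatic TGF-beta signalling.

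The FPKM values rest on 14507410, 10760613 and 12267332 reads, totals recovered from the FPKM steps. FOXO3 stood at 12.2, 2.79 and 2.94 FPKM in that order, and GMNN, which encodes Geminin, at 112, 112 and 37.0, so both were low in the libraries labelled for their depletion. Among markers of the line, VIM, KRT8, KRT18 and CD44 lay between 118 and 1105 FPKM. ESR1 stayed at or under 0.12 and CDH1 at or under 1.02 FPKM, while EPCAM reached 13.7. Summed levels of 4 leukocyte markers ran from 8.45 to 9.91 FPKM, mostly CD14, with CD3E at 0 throughout. The sums of 4 fibroblast markers were at most 0.54 FPKM, and those of the endothelial and HEK293 markers at most 0.26.

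Across the 10 genes the clearest difference was in the second ligand gene. TGFB2 was about 1.8-fold higher than control after FoxO3 depletion and 1.9-fold higher after co-depletion, while TGFB1 differed little. TGFBR2 and, slightly, SMAD3 were higher and LTBP1 lower than control in both depleted libraries. TGFBR1, SMAD2 and SMAD4 were lower as deposited, but with adjustment for GC content, described below, TGFBR1 and SMAD2 changed sign in both comparisons and SMAD4 in the first. TGFBI, named for its induction by TGF-beta, stayed within counting error of control. TGFB2, TGFBR2, SMAD3 and LTBP1 kept their directions under that adjustment.

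**Figure D1:**
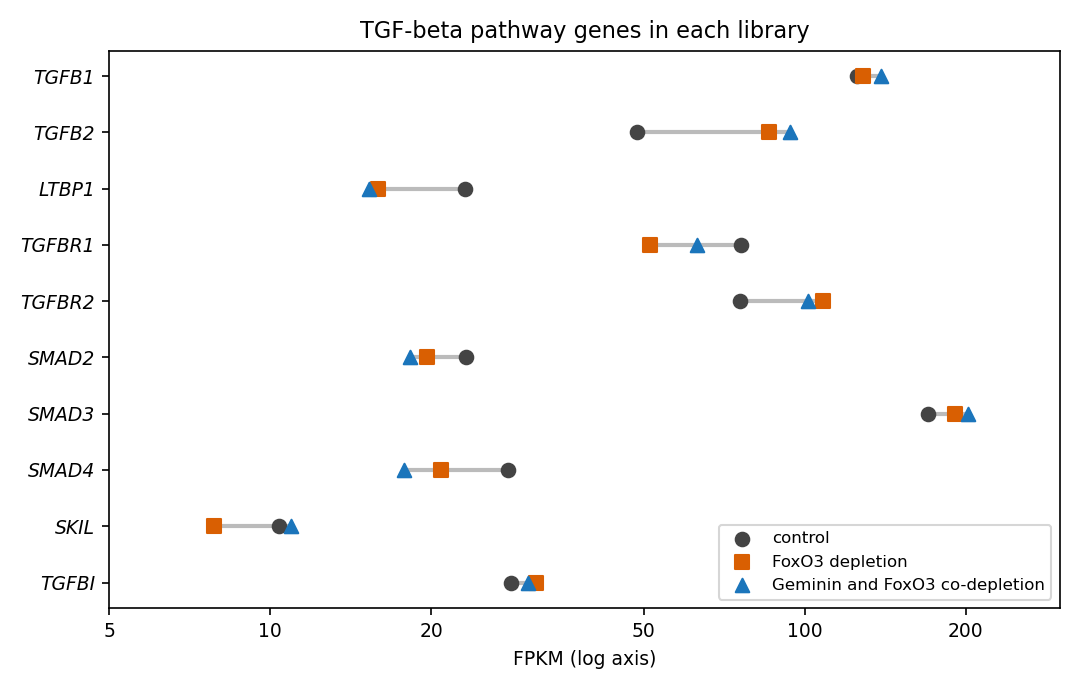
FPKM of the 10 genes (log axis) in the control (circles), the FoxO3 depletion (squares) and the co-depletion of Geminin and FoxO3 (triangles), 1 library each. TGFB2 sits at 48.5 FPKM in control cells and reaches 85.7 and 93.7 in the others, and TGFBR1 and TGFBR2, level in the control, part in the depleted libraries.

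Levels per length spanned more than an order of magnitude within the control. SMAD3 was the most abundant at 169.8 FPKM, followed by TGFB1 at 125. The receptors TGFBR1 and TGFBR2 came next at 76.1 and 75.8 FPKM, a within-library ratio of 1.0. TGFB2 followed at 48.5 FPKM. TGFBI at 28.3, SMAD4 at 27.9, SMAD2 at 23.2 and LTBP1 at 23.2 formed a close group, and SKIL was lowest at 10.4 FPKM. These levels depend on the gene lengths the authors divided by. The values give them as 1030 bases for TGFB1, 1238 for SMAD3, 2427 for TGFBR1, 3576 for SMAD2 and 4613 for TGFBR2. Ratios between libraries do not depend on them.

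The ligand genes parted from each other. TGFB2 encodes an isoform that needs the co-receptor betaglycan for efficient receptor binding. It was at 48.5 FPKM in control cells, 85.7 with FoxO3 depleted and 93.7 with both depleted, from 2098, 2753 and 3429 reads. Its FPKM ratio to control was 1.77 after FoxO3 depletion (95% counting interval 1.67 to 1.87) and 1.93 (1.83 to 2.04) after co-depletion. These intervals are exact Clopper-Pearson intervals on the recovered reads and cover counting error only. The log2 ratios on the FPKM + 1 scale were 0.81 and 0.94, and only 1.57% and 0.76% of analysed genes had higher ones. TGFB2 was thus past 1.5-fold, the size used here to call a gene, in both comparisons with control. Co-depletion over FoxO3 depletion was 1.09 (1.04 to 1.15) for TGFB2. The log2 ratio there was 0.13 as deposited and -0.03 with GC adjustment, so its sign rests on that step. TGFB2-OT1, which is not listed in the files, covers 1371 exonic bases of TGFB2 on the same strand, so reads of the 2 cannot be separated there.

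TGFB1, the most widely expressed isoform, was at 125, 129 and 139 FPKM. Its ratio to control was 1.03 (0.96 to 1.10) with FoxO3 depleted and 1.11 (1.04 to 1.18) with both depleted, so the first interval includes equality and the second lies just above it. With GC adjustment its log2 ratio went from 0.04 to -0.01 in the first comparison and from 0.15 to 0.04 in the second, a shift beyond the counting interval. TGFB1 shares 215 exonic bases (6.64% of its own in GENCODE 29) with HNRNPUL1 on the opposite strand, a gene at 265 to 273 FPKM. The strand setting of the counting is not given, so TGFB1 levels are uncertain to that extent. Relative to TGFB1, TGFB2 stood at 0.39 in control cells, 0.67 with FoxO3 depleted and 0.67 with both depleted. This within-library ratio was 1.72-fold higher than control after FoxO3 depletion (exact conditional interval 1.57 to 1.89), and 2.80-fold higher with GC adjustment of both genes. TGFB3, the remaining isoform, was at 4.66, 4.99 and 3.72 FPKM. TGFB2 therefore made up 27.2%, 39.1% and 39.6% of the summed FPKM of the 3 isoform genes.

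The promoters of the ligand genes are shown because TGFB2 was past 1.5-fold in both comparisons with control and TGFB1 in neither. Each window is the 250 bases before the first transcript start in RefSeq's table (GRCh38.p14), on the gene's own strand. All 10 genes had a window. Capitals mark matches, on either strand, to motifs searched in every window: the SMAD box CAGAC, the forkhead cores GTAAACA and GTAAATA, the AP-1 site TGANTCA, the cyclic AMP response element TGACGTCA and the TEAD motif CATTCC.
TGFB2 (chr1:218345086-218345335, plus strand): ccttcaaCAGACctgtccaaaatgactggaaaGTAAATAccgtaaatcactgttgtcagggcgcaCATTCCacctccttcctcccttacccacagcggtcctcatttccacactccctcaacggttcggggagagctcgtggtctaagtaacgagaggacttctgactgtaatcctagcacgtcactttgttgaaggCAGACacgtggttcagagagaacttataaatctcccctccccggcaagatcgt
TGFB1 (chr19:41353923-41354172, minus strand): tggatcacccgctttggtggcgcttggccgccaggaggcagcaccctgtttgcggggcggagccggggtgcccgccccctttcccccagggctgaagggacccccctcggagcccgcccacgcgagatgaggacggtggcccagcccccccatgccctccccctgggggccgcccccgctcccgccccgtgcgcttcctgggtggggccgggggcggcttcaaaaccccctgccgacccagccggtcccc
The TGFB2 window held 2 SMAD boxes, 243 and 53 bases before the start, a forkhead variant core at 218 and a TEAD motif at 185. The TGFB1 window held none of the 6. Of 27305 gene windows, 37.8% held a SMAD box, 2.47% the core GTAAATA and 11.9% the TEAD motif. GC content was 50.4% in the TGFB2 window and 76.8% in that of TGFB1. A match is a run of letters and not a measured binding site.

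LTBP1, which anchors latent TGF-beta, was at 23.2 FPKM in control cells, 15.9 with FoxO3 depleted and 15.3 with both depleted. Both depleted libraries lay well under the control and close to each other. Its ratio to control was 0.69 (0.62 to 0.76) with FoxO3 depleted and 0.66 (0.60 to 0.73) with both depleted, log2 ratios of -0.52 and -0.57, both just short of 1.5-fold on this scale. The 2 depleted libraries did not differ beyond counting error (co-depletion over FoxO3 depletion 0.96, 0.85 to 1.09). After GC adjustment LTBP1 was at -0.51 and -0.54, and 11.4% and 6.76% of analysed genes had lower values. Set against TGFB2, LTBP1 stood at 0.48 in control cells, 0.19 with FoxO3 depleted and 0.16 with both depleted. The first of these differences, a ratio of 0.39 to control (0.34 to 0.44), was 0.25 with GC adjustment. The LTBP1 promoter is printed as that of the gene with the lowest ratios of the 10 taken over both comparisons with control. RefSeq lists 3 starts for LTBP1, and only the window of the first was searched.
LTBP1 (chr2:32946703-32946952, plus strand): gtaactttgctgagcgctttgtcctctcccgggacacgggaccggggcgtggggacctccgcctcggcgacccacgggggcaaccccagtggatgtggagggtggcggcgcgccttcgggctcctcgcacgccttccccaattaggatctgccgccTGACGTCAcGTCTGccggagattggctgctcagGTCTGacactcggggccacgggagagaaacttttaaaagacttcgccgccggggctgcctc
It held 2 SMAD boxes, 85 and 61 bases before the start, and the full response element TGACGTCA 94 bases before it, found in 1.77% of all windows. The SKIL window, with 1 SMAD box, was the other one of the 10 to hold that element. No window of the 10 held GTAAACA or TGANTCA, which were in 2.98% and 6.60% of all windows.

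By FPKM, at the gene lengths used, the receptor genes were level in the control and apart in both depleted libraries. TGFBR2, the ligand-binding kinase, was at 75.8 FPKM in control cells, 108 with FoxO3 depleted and 101 with both depleted. Its ratio to control was 1.43 (1.37 to 1.48) and 1.34 (1.29 to 1.39), with 5072, 5371 and 5735 reads behind the values. TGFBR1, the kinase that phosphorylates the SMADs, was at 76.1, 51.4 and 62.9 FPKM in the same order. Its ratio was 0.68 (0.63 to 0.72) with FoxO3 depleted and 0.83 (0.78 to 0.88) with both depleted, but its log2 ratios of -0.56 and -0.27 became 0.02 and 0.17 with GC adjustment. TGFBR2 kept log2 ratios of 0.48 and 0.44 under that adjustment, against 0.51 and 0.41 without it.

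TGFBR1 over TGFBR2 was 1.0 in control cells, 0.47 with FoxO3 depleted and 0.62 with both depleted. Relative to control this ratio was 0.47 (0.44 to 0.51) with FoxO3 depleted and 0.62 (0.58 to 0.66) with both depleted, or 0.73 and 0.82 with GC adjustment. Between the depleted libraries it was 1.31-fold higher with Geminin also depleted (1.21 to 1.42), or 1.17-fold with GC adjustment. TGFBR1 alone was 1.22-fold higher there (1.14 to 1.31) and TGFBR2 at 0.94 (0.90 to 0.97). With GC adjustment the log2 ratio of TGFBR1 in that comparison was 0.17 in place of 0.29, a shift beyond the counting interval. The promoters of this pair differ widely in base composition.
TGFBR2 (chr3:30606106-30606355, plus strand): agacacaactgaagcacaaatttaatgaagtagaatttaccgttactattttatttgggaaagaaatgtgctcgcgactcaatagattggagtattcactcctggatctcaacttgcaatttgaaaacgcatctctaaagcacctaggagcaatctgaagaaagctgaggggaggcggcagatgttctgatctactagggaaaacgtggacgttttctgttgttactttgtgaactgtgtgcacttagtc
TGFBR1 (chr9:99104863-99105112, plus strand): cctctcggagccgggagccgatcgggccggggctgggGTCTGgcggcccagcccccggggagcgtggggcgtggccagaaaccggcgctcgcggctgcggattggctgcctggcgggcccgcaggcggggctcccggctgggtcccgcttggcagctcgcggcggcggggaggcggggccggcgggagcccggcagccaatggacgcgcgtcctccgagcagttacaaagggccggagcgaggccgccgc
The TGFBR2 window had 40.8% GC and no match to a motif, and the TGFBR1 window had 79.6% GC and 1 SMAD box, 213 bases before the start. RefSeq lists 2 starts for TGFBR2 and 8 for TGFBR1, and the first was used. TGFB2 and TGFBR2, the genes with the highest ratios to control of the 10 as deposited, had the windows poorest in GC. The other 8 ran from 66.4% to 80.8%, and the median of all windows was 58.0%. With GC adjustment SKIL, whose window had 78.4% GC, was above TGFBR2 after co-depletion (log2 ratios of 0.632 and 0.445). A link between the GC content of a window and the ratio of its gene was not tested.

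**Figure D2:**
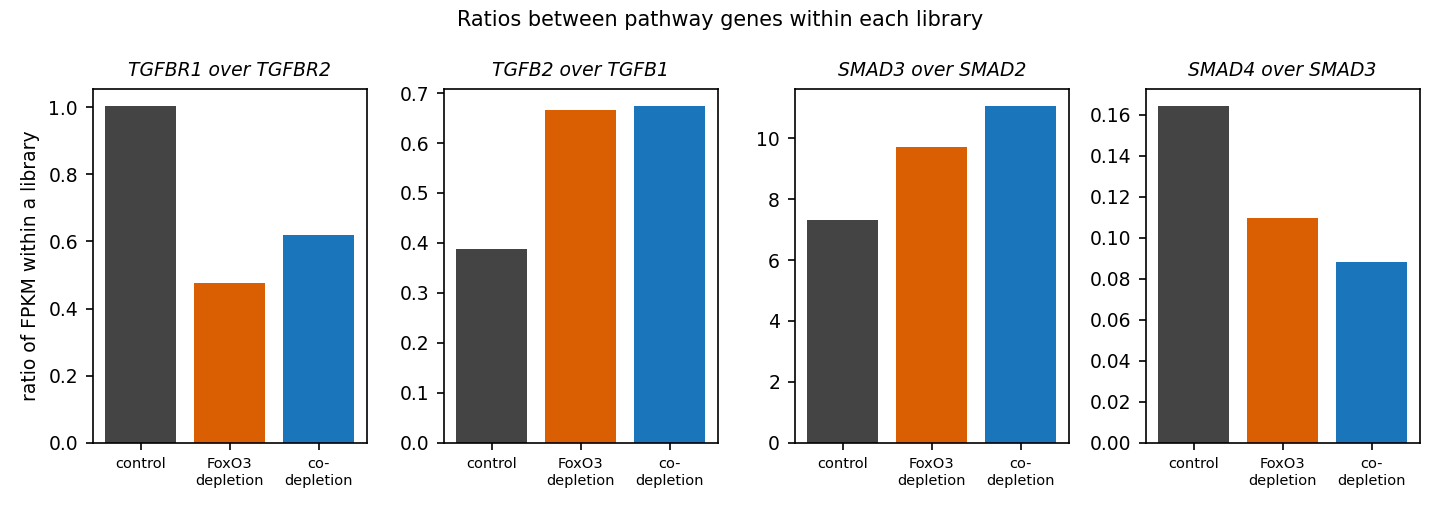
Ratio of FPKM between genes within each library (bars from 0, 1 library each, no error drawn). TGFBR1 over TGFBR2 goes from 1.0 in the control to 0.47 and 0.62, TGFB2 over TGFB1 from 0.39 to 0.67 in both depleted libraries, SMAD3 over SMAD2 from 7.31 to 9.70 and 11.1, and SMAD4 over SMAD3 from 0.16 to 0.11 and 0.09. GC adjustment is not applied. With it the differences from control after FoxO3 depletion are 0.73 in place of 0.47 for the receptors and 2.80 in place of 1.72 for the ligands. They are 0.91 in place of 1.33, the other direction, for SMAD3 over SMAD2, and 0.91 in place of 0.67 for SMAD4 over SMAD3.

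Among the transducers, SMAD3 was far above its close relative SMAD2 by FPKM, at gene lengths of 1238 and 3576 bases. The control reads behind these levels were 3049 and 1205. The FPKM gap was wider in the depleted libraries as deposited. With GC adjustment, though, the log2 ratio of SMAD2 exceeded that of SMAD3 after FoxO3 depletion (0.27 against 0.14). SMAD3, which binds DNA directly, was at 169.8 FPKM in control cells, 190.9 with FoxO3 depleted and 201.8 with both depleted. Its ratio to control was 1.12 (1.07 to 1.19) and 1.19 (1.13 to 1.25). SMAD2, whose main isoform does not bind DNA by itself, was at 23.2, 19.7 and 18.2 FPKM. Its ratio was 0.85 (0.77 to 0.93) and 0.79 (0.72 to 0.86), although its log2 ratios of -0.23 and -0.33 became 0.27 and 0.05 with GC adjustment. SMAD3 over SMAD2 was 7.31 in control cells, 9.70 with FoxO3 depleted and 11.1 with both depleted. Relative to control it was 1.33-fold higher (1.19 to 1.48) and 1.51-fold higher (1.37 to 1.68).

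SMAD4, the shared partner of all receptor-activated SMADs, was at 27.9 FPKM in control cells, 20.9 with FoxO3 depleted and 17.8 with both depleted. The co-depleted library was the lowest of the 3. Its ratio to control was 0.75 (0.66 to 0.84) and 0.64 (0.57 to 0.72), and co-depletion over FoxO3 depletion was 0.85 (0.74 to 0.98). The log2 ratio of -0.62 in the second comparison passed 1.5-fold, and with GC adjustment it was -0.27. In the first comparison the adjustment took it from -0.40 to 0.01. SMAD4 over SMAD3 was 0.16 in control cells, 0.11 with FoxO3 depleted and 0.09 with both depleted. Relative to control this ratio was 0.67 (0.58 to 0.76) and 0.54 (0.47 to 0.61), or 0.91 and 0.72 with GC adjustment. SMAD4 shares 967 exonic bases (7.37% of its own) with AC091551.1 on the same strand, a gene listed at 0.00 FPKM in every library. How reads in those bases were counted is not given, so the level of SMAD4 is uncertain to that extent.

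The promoters of the paralogous pair SMAD2 and SMAD3 are shown because these genes share their activating kinase and went opposite ways before GC adjustment.
SMAD2 (chr18:47930873-47931122, minus strand): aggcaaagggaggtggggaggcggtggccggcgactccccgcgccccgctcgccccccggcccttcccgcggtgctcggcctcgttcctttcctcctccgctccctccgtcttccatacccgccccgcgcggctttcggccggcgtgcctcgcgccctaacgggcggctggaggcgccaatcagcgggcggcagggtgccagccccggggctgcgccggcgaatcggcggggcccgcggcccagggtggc
SMAD3 (chr15:67065352-67065601, plus strand): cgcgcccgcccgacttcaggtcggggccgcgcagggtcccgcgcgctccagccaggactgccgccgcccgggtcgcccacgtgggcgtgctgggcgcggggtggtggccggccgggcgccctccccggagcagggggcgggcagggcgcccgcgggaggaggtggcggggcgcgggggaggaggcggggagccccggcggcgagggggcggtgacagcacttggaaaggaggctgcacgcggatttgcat
Neither window held a motif of the 6, and GC content was 78.4% and 80.8%. RefSeq lists 2 starts for SMAD2 and 5 for SMAD3, and the first was used. These 2 windows are much alike in GC content, although the transcripts of the genes hold 40.2% and 54.0% GC.

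SKIL encodes SnoN, a corepressor that is degraded on TGF-beta signalling and then re-expressed as a target of it. SKIL was at 10.4 FPKM in control cells, 7.83 with FoxO3 depleted and 10.9 with both depleted, from 292, 163 and 259 reads. The FoxO3-depleted library stood alone below the others. The ratio to control was 0.75 (0.62 to 0.91) with FoxO3 depleted and 1.05 (0.88 to 1.24) with both depleted. The log2 ratio of the first comparison was -0.37, or 0.40 with GC adjustment, so its sign rests on that step. Co-depletion over FoxO3 depletion was 1.39 (1.14 to 1.71), and 4.13% of analysed genes had a higher log2 ratio in that comparison. After adjustment this log2 ratio was 0.23 instead of 0.43.

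TGFBI encodes a matrix protein that binds integrins. It was at 28.3, 31.4 and 30.4 FPKM, with ratios to control of 1.11 (0.99 to 1.25) and 1.08 (0.96 to 1.21). Neither interval excludes equality.

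**Figure D3:**
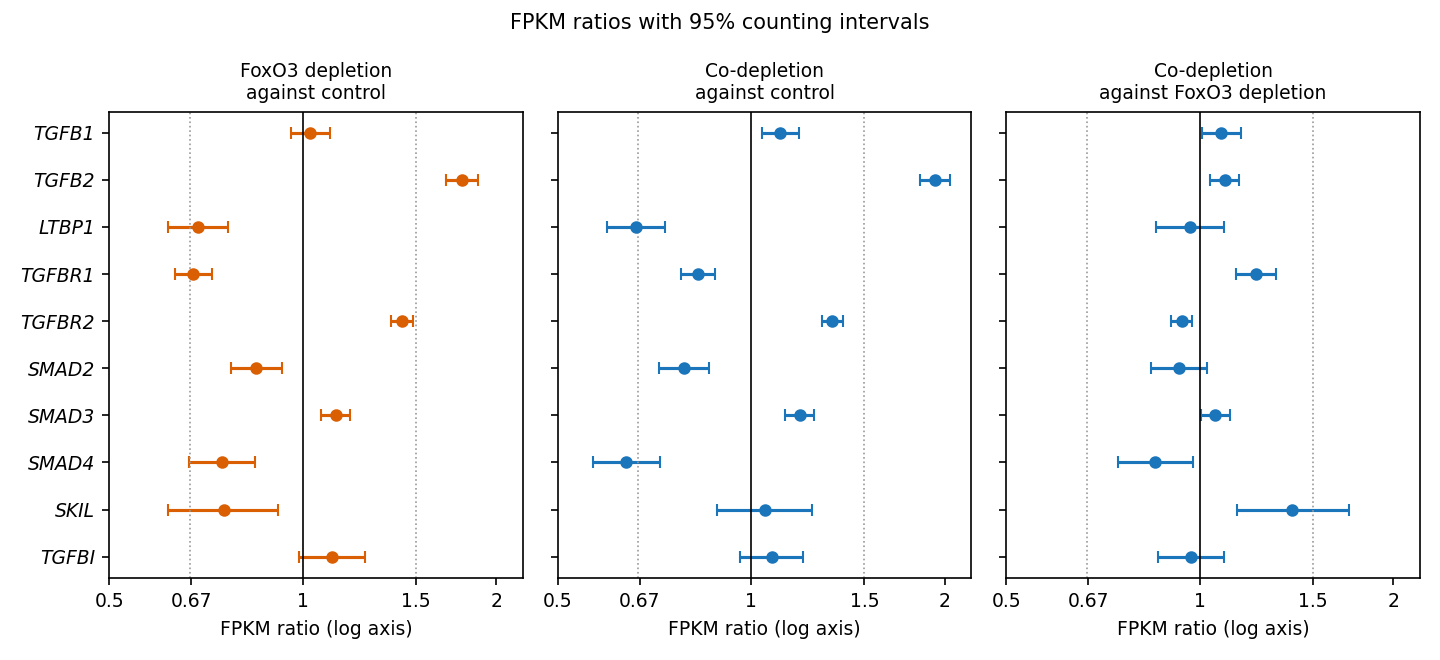
FPKM ratio of each gene (log axis) in the 3 comparisons, with exact 95% counting intervals as bars and no GC adjustment. Dotted lines mark 1.5-fold either way on the plain FPKM ratio, whereas calls use FPKM + 1. After co-depletion SMAD4 (0.64) and LTBP1 (0.66) lie beyond the lower line, and LTBP1 is not called. TGFB2 lies beyond 1.5-fold in both comparisons with control, TGFBR1 and TGFBR2 lie on opposite sides of 1, and in the third comparison SKIL and TGFBR1 lie highest; with GC adjustment TGFBR1 changes sign in both comparisons with control and SKIL in the first.

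By the 1.5-fold rule 1 of the 10 genes (TGFB2) was higher and 0 were lower after FoxO3 depletion. Of all 12649 genes analysed, 4.0% were higher and 16.7% lower in that comparison. After co-depletion 1 gene (TGFB2) was higher and 1 (SMAD4) lower, against 4.02% and 12.3% of all genes. Between the depleted libraries 0 of 10 passed in either direction, and 1.35% of all genes were higher and 0.617% lower in the co-depletion. The median log2 ratio of the 10 was -0.10, 0.08 and 0.02 in these comparisons, or 0.11, 0.11 and -0.02 with GC adjustment, and that of all genes -0.07, -0.06 and 0.03. With 10 genes, counts of 0 or 1 are too small to set the group apart from these shares. Both comparisons with control use the same control library, so they are not independent.

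Transcript GC content differed among the 10 genes, and ratios varied with it across all genes. Its part in the results was not tested beyond the adjustment given here. Of the called genes, 80.7% were lower after FoxO3 depletion and 75.3% after co-depletion, and after GC adjustment 59.2% and 56.0%. The adjustment subtracts the median log2 ratio of genes of like transcript GC content. Of the 10 genes, TGFB2 (38.9%), TGFBR1 (39.7%) and SKIL (37.2%) belonged to the 1265 analysed genes poorest in GC (26.9% to 39.8%), and SMAD2 (40.2%) and SMAD4 (40.9%) to the 1265 next to them. In the poorest group the median log2 ratio was -0.71 after FoxO3 depletion and -0.53 after co-depletion.

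TGFB2 stood out against genes of its own base composition. In that group 8 of 1265 genes were higher by 1.5-fold after FoxO3 depletion, TGFB2 among them, and 760 were lower. After co-depletion 12 were higher and 560 lower. Its GC-adjusted log2 ratios were 1.47 and 1.44, and 0.20% and 0.21% of analysed genes had higher values. By contrast TGFBR1, at 0.02 after adjustment in the first comparison, lay at the median of genes like it. With adjustment 1 of 10 genes (TGFB2) was higher after FoxO3 depletion and 2 (TGFB2 and SKIL, at 0.63) after co-depletion, with 0 lower in both. The shares of all genes were then 5.80% higher and 8.42% lower, and 4.47% higher and 5.68% lower. Between the depleted libraries 0 of 10 were called after adjustment, and 1.07% of all genes were higher and 0.712% lower.

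**Figure D4:**
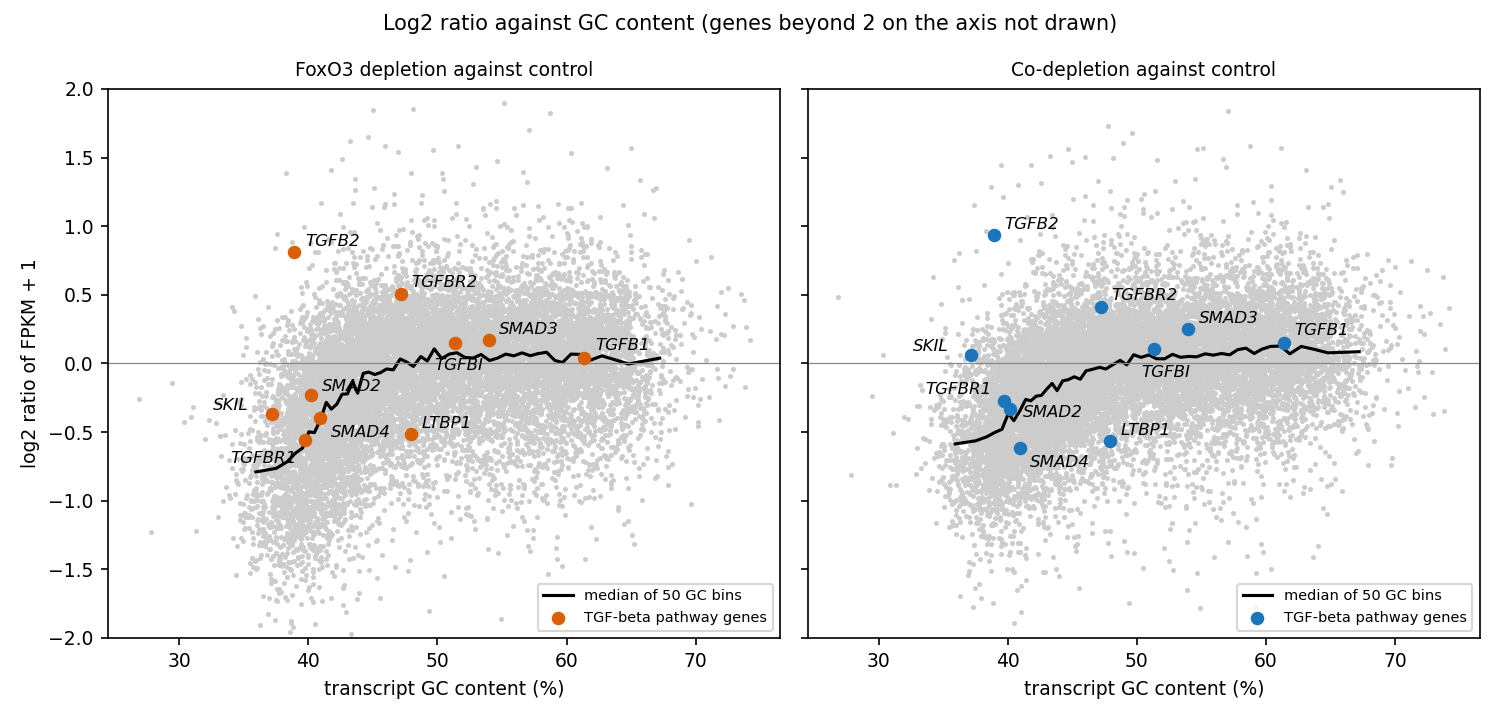
Log2 ratio of FPKM + 1 against transcript GC content for the analysed genes (grey; those beyond 2 not drawn), the 10 pathway genes (coloured) and the median of 50 GC bins (line), with the FoxO3 depletion on the left and the co-depletion on the right. TGFB2 lies far above the line at 38.9% GC, TGFBR2 lies above it and LTBP1 below it at 47 to 48% GC, and TGFBR1 and SMAD2 lie near or above the line although below 0.

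The genes whose ratios were most like those of TGFB2 were sought among the 3042 analysed genes with a mean FPKM within 2-fold of its own, by distance in the 2 log2 ratios to control. TUBB2A, a beta-tubulin, was nearest at a distance of 0.04, at 57.3, 103 and 108 FPKM. AMOTL2, an angiomotin-like protein, and TAP1, a peptide transporter of antigen presentation, followed at 0.05 and 0.07. These transcripts hold 58.6%, 59.6% and 54.6% GC, far more than TGFB2. Only 20 genes lay within a distance of 0.2 of TGFB2. For LTBP1, 356 of 4357 genes did, and the nearest were DOCK4, SNRK and SLC38A9 at 0.00 to 0.02. Likeness here rests on 3 libraries, and TUBB2A shares sequence with other tubulin genes, so its reads are uncertain.

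The rest of the pathway was described in 9 lists by role, holding 111 genes of which 99 were analysed, the 10 included. Counts of called genes in each list stand against 4.0% higher and 16.7% lower among all analysed genes after FoxO3 depletion, and 4.02% and 12.3% after co-depletion. Counts with GC adjustment stand against 5.80% higher and 8.42% lower, and 4.47% and 5.68%. Among ligands, 2 of 9 were higher by 1.5-fold after FoxO3 depletion and 0 lower, and the median of their log2 ratios was 0.30. After co-depletion 4 of 9 were higher and 0 lower, against those 4.02% and 12.3%, with a median of 0.54. The 9 include BMP1, which encodes a protease and not a ligand, and its log2 ratio of 0.54 is that median. BMP4, a ligand of the BMP branch, was at 262 FPKM in control cells, 507 with FoxO3 depleted and 536 with both depleted, ratios of 1.93 (1.86 to 2.01) and 2.05 (1.97 to 2.12). INHBB, the activin beta B subunit, was at 21.6, 31.2 and 33.6 FPKM, and GDF15, a stress-induced cytokine, at 7.47, 8.12 and 12.6. With GC adjustment 3 of these 9 genes were higher after co-depletion, against 4.47% of all genes. GDF15 (0.57) and INHBB (0.54) were then within 1.5-fold, and INHBA, the activin beta A subunit at 0.86, 1.13 and 1.62 FPKM, passed it (0.60, against 0.50 as deposited). TGFB2 had the second highest ratio of the list after BMP4 in both comparisons with control, and with GC adjustment the highest in both.

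Genes of latency and activation went both ways around LTBP1. After FoxO3 depletion 2 of 14 were higher and 3 lower (median -0.19), and after co-depletion 2 higher and 0 lower (median -0.09), where 16.7% and 12.3% of all genes were lower. With GC adjustment 2 were higher and 1 lower in each, against 5.80% and 8.42% of all genes, and 4.47% and 5.68%. THBS1, thrombospondin-1, a known activator of latent TGF-beta, was at 560 FPKM in control cells, 2368 with FoxO3 depleted and 1855 with both depleted. FBN1, the fibrillin that LTBPs bind in the matrix, was at 20.6, 40.2 and 38.3 FPKM. LTBP2, a relative of LTBP1, was at 8.96, 3.98 and 5.71 FPKM, with log2 ratios of -1.0 and -0.57, or -1.07 and -0.70 when adjusted for GC. The integrin subunits ITGAV, at 48.6, 23.9 and 33.5 FPKM, and ITGB1, at 1322, 846 and 1033, were lower as deposited, but with GC adjustment they were at -0.02 and 0.00 after co-depletion. After FoxO3 depletion ITGAV went from -0.99 to -0.34 with adjustment and ITGB1 from -0.64 to -0.21.

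Of 10 receptors and co-receptors, TGFBR1 and TGFBR2 included, 0 were higher and 1 lower in each comparison with control. With GC adjustment 1 was higher in each, BMPR1B, a type I BMP receptor (0.74 and 0.78). It was at 1.5, 2.21 and 2.44 FPKM, from 43, 47 and 59 reads. Its FPKM ratio to control was 1.47 (0.95 to 2.28) and 1.62 (1.08 to 2.46), so the first interval includes equality. With adjustment 0 of the 10 were lower after FoxO3 depletion and 1 after co-depletion. The shares of all genes were then 5.80% higher and 8.42% lower, and 4.47% and 5.68%. The medians of the list were -0.15 and -0.23, but 0.02 and 0.12 with GC adjustment. BMPR2, the type II BMP receptor, was at 13.3, 8.29 and 9.17 FPKM, and its log2 ratios of -0.62 and -0.49 became 0.14 and 0.07 with GC adjustment. ACVR1, a type I receptor, was at 16.0, 13.7 and 9.28 FPKM, lowest with both depleted.

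Of 7 SMADs, 1 was higher and 1 lower after FoxO3 depletion, and 1 higher and 2 lower after co-depletion, with SMAD4 as the second (medians -0.23 and -0.33, or 0.14 and 0.05 with GC adjustment). SMAD5, a transducer of the BMP branch, was at 51.3, 17.2 and 20.1 FPKM, far lower in both depleted libraries, and stayed at log2 ratios of -1.02 and -0.91 after GC adjustment. The inhibitory SMAD6 was at 6.71, 13.5 and 11.5 FPKM, and its second log2 ratio of 0.70 was 0.58, just within 1.5-fold, after adjustment. SMAD5 shares 610 exonic bases with the antisense gene SMAD5-AS1, itself listed at 0.00, 0.00 and 0.04 FPKM. How reads in those bases were counted is not given, so the level of SMAD5 is uncertain to that extent. Of the 4 corepressors, 0 passed 1.5-fold after FoxO3 depletion (median -0.39), and SKI and TGIF2 were lower after co-depletion (median -0.26). With GC adjustment the medians were -0.04 and -0.10, and SKIL was higher after co-depletion (0.63). SKI, the close relative of SKIL, was at 103, 77.6 and 68.4 FPKM, with GC-adjusted log2 ratios of -0.48 and -0.71. TGIF2 was at 22.1, 15.4 and 12.7 FPKM.

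Of 9 coactivators and partners, 1 was higher in each comparison with control, and 1 was lower after FoxO3 depletion and 0 after co-depletion (medians 0.10 and 0.03). JUNB, an AP-1 subunit, was at 13.3, 26.3 and 28.8 FPKM and shares 259 exonic bases with HOOK2 on the opposite strand. TRIM33, a SMAD4 ubiquitin ligase and cofactor, was at 39.9, 23.4 and 27.1 FPKM, and -0.41 and -0.27 after GC adjustment. In turnover and inhibition 3 of 15 were higher and 4 lower after FoxO3 depletion (median -0.19, or 0.15 adjusted), and 1 higher and 2 lower after co-depletion (median -0.07, or 0.08 adjusted). Of all genes, 4.0% were higher and 16.7% lower, and 4.02% and 12.3%, in the same comparisons. BAMBI, a decoy receptor, was at 8.79, 18.6 and 18.2 FPKM, and the phosphatase subunit PPP1R15A, which acts on TGFBR1, at 52.5, 84.6 and 71.7. FKBP1A, which binds the unstimulated TGFBR1, was at 991, 534 and 546 FPKM, and has near-identical copies that make its reads uncertain. The deubiquitinases USP15, at 36.9, 17.7 and 21.5 FPKM, and USP9X, at 145, 83.6 and 97.1, and the ligase RNF111, at 14.4, 9.05 and 9.88, were within 1.5-fold after GC adjustment. In the non-SMAD branch ROCK1 was the 1 of 8 genes called in each comparison with control, at 80.6 against 36.6 and 43.3 FPKM, and was within 1.5-fold after adjustment (medians of the list -0.21 and -0.17, or 0.02 and 0.04 adjusted).

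Targets of the pathway, the longest list, held the most genes called higher. After FoxO3 depletion 9 of 30 were higher and 1, LTBP2, was lower (median 0.36), and after co-depletion 12 were higher and 0 lower (median 0.44). The shares of all genes were 4.0% higher and 16.7% lower, and 4.02% and 12.3%. With GC adjustment 8 were higher and 1 lower, and 12 higher and 1 lower, LTBP2 being the lower gene in both. The shares of all genes were then 5.80% higher and 8.42% lower, and 4.47% and 5.68%. The list was not split by the direction in which TGF-beta moves each gene, and it includes MYC, ID1, ID2 and ID3. A count of higher genes is therefore not a measure of pathway activity. ID3 was at 12.9, 44.1 and 48.7 FPKM, IL11 at 57.0, 167 and 141, and CYR61 at 482, 1304 and 1214. TGFB1, SKIL and TGFBI, which also belong to this list, had log2 ratios to control between -0.37 and 0.15 and were not among the called targets, except that SKIL passed 1.5-fold after co-depletion with GC adjustment. The lists were chosen with results of these data known and are not independent evidence of a direction.

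**Figure D5:**
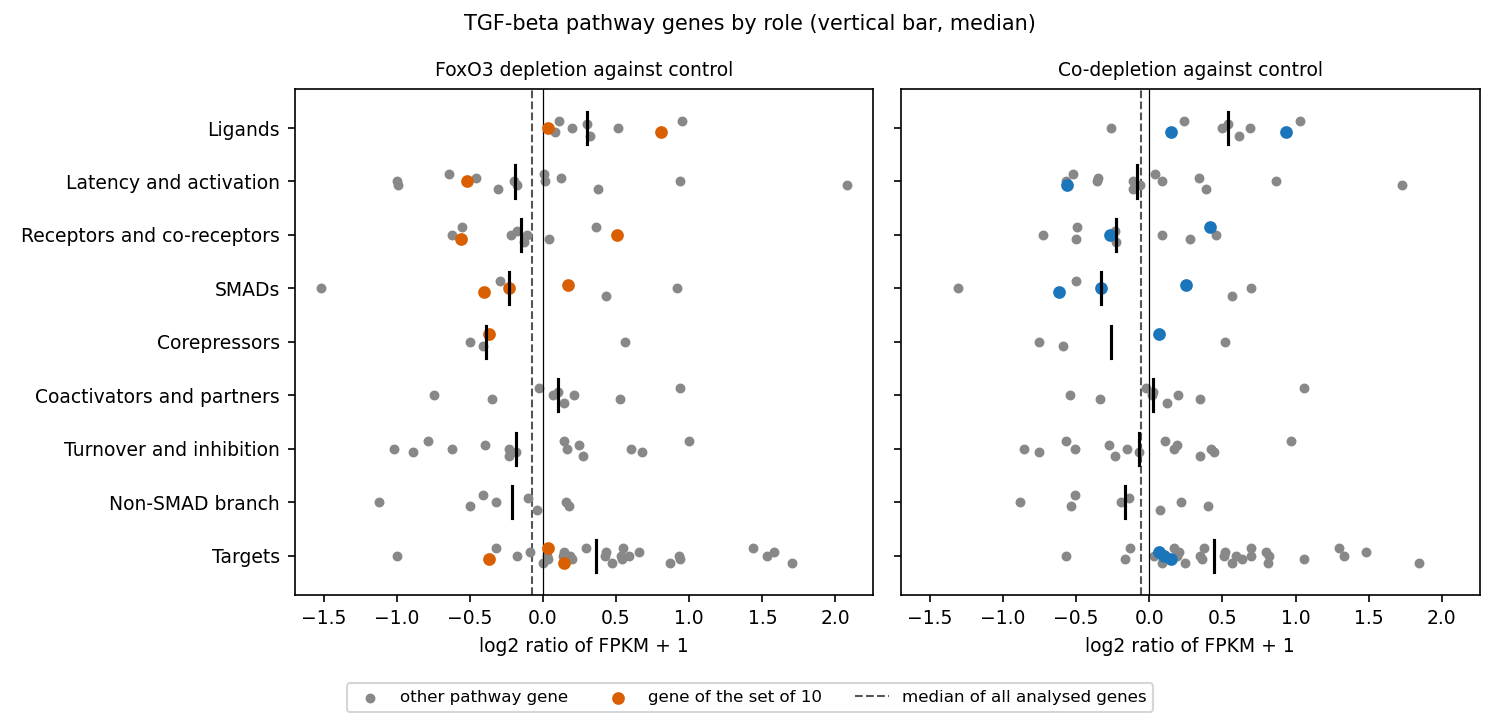
Log2 ratio of FPKM + 1 for the analysed genes of each pathway list, with the 10 genes coloured (orange left, blue right), other genes grey, list medians as short vertical bars and the median of all analysed genes (-0.07 and -0.06) as a dashed line. The target and ligand medians are 0.36 and 0.30 on the left and 0.44 and 0.54 on the right, and the points are not GC-adjusted. The ligand list includes the protease gene BMP1.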

How the data were processed

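Values are FPKM as deposited by the authors, 1 file per library, for 48162 Ensembl genes. TopHat2 2.0.9 appears in the submitters' processing notes. No label or header names the counter, build, annotation or strand setting. Per the labels, libraries came from total RNA with a TruSeq kit. GENCODE 29 named 45342 IDs and gave transcript lengths and GC content; 297 genes above the minimum had no name and were not used.

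Library totals were recovered from products of FPKM and length of single-transcript genes (relative tolerance 1e-06). Whole reads with a whole length were then found for 97.8% of 17703 genes above 0 in all 3 libraries. A common divisor of the true reads cannot be seen, in which case the intervals are too wide.

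Ratios are log2 of FPKM + 1, which understates differences of low genes. With 1 library per group there is no test and no p-value, and a call is 1.5-fold by size. GC adjustment subtracts the median ratio over 50 GC bins. Every member was named, and of each list up to 6 called genes with the largest ratios; for TGFB2 and LTBP1 the 3 nearest genes. INHBA, BMPR1B and TGFB3 were named after their values were seen. A gene of the target list that this rule names is not reported here. Members, lists and alternatives were chosen with earlier results of these data known. Software was Python 3.11.15, scipy 1.17.1 and pandas 2.3.3, and the steps were tested on simulated data. Promoters are from RefSeq (GRCh38.p14).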

Additional observations from a re-analysis of the deposited data

How the results depend on the processing

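Across 30 member ratios (10 genes in 3 comparisons), pseudocounts of 0.1 and 0.5, a minimum mean of 5 FPKM, no minimum, rescaling to TPM and protein-coding genes alone moved none beyond its counting interval, and centring on the median ratio moved 2. GC adjustment moved 13 and gave 8 the opposite sign, with a largest shift of 0.77. Of the gene set, FoxO3 depletion had 1 lower gene with TPM and 0 higher at 2-fold. Co-depletion had 2 higher with GC adjustment and 0 at 2-fold, and its lower count was 2 with a pseudocount of 0.1 or TPM and 0 when centred, GC-adjusted or at 2-fold.

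Of all genes against control at 2-fold, 85 were higher and 661 lower after FoxO3 depletion, and 79 and 285 after co-depletion. At 1.5-fold, GC adjustment left 1065 and 719 lower, against 2112 and 1550 without it. Co-depletion against FoxO3 depletion had 451 higher and 207 lower genes with a pseudocount of 0.1, 312 and 130 with 0.5, 45 and 14 with a minimum of 5 FPKM, 384 and 232 with none, 16 and 8 at 2-fold, and 89 and 24 for protein-coding genes. The cause was not tested, except that fewer or more genes were tested under the minimums and for protein-coding genes.

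No paired analysis was possible because each group has 1 library, and no library was left out for the same reason. Depth limits SKIL most, with 163 to 292 reads.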

Other observations

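Some pathway genes fell short of the minimum mean of 1 FPKM. Chosen after its values were seen, ITGB8, an integrin subunit that releases active TGF-beta from its latent complex, was at 1.6 FPKM in control cells, 0.20 with FoxO3 depleted and 0.18 with both depleted, from 74, 7 and 7 reads. Its FPKM ratio to control was 0.13 (0.05 to 0.28) and 0.11 (0.04 to 0.24), by counting error only. ITGB6, which does the same in epithelia, was at 0.17, 0.05 and 0.24 FPKM, and LRRC32, the anchor of latent TGF-beta on regulatory T cells and platelets, was listed at 0 in all 3 libraries. FOXH1, a forkhead partner of SMAD2, was listed at 0.00, 0.06 and 0.00 FPKM.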
